A study of Mus musculus with 4 samples.

Results

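The genes described here encode the transporters and enzymes that carry glucose into the cell, break it down to pyruvate and lactate, store it as glycogen and feed it to the mitochondria or the pentose phosphate pathway. They are 43 genes chosen by name, with earlier results of these data known, of 18193 genes that the arrays name singly. For 37 of them at least 1 probe set that names only that gene passed a filter on low signal, out of 12952 genes that did so in the whole data set. A probe set is a group of short probes read as 1 value, for 1 transcript or in some cases for several. RNA was measured on 4 Affymetrix arrays of cultured neuroepithelial cells, the dividing precursors of forebrain neurons and glia, taken from the telencephalon of ICR mouse embryos. In the E14.5 group (2 arrays) cells of embryonic day 14.5 had been cultured for 4 days. In the E11.5 group (2 arrays) cells of embryonic day 11.5 had been cultured for 1 day. Both groups were grown with 10 ng/ml basic FGF on polyornithine and fibronectin, so embryonic age and time in culture cannot be told apart. No treatment or mutation was applied in either group, and the labels do not say whether arrays of a group came from separate cultures or embryos, so p-values measure only the spread between these arrays.

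Glucose enters neural cells through facilitative transporters and is trapped by hexokinase. Glycolysis then splits it into pyruvate, which is reduced to lactate, oxidised by pyruvate dehydrogenase or carboxylated by pyruvate carboxylase. In the mature brain, glycogen and pyruvate carboxylase are found mainly in astrocytes, which are also known to release lactate, while neurons and glia use different isoenzymes for several steps. The arrays show how transcripts for each of these steps stood in cultures of the later and of the earlier precursors.

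Transcripts for glycogen storage, pyruvate carboxylation and lactate dehydrogenase were higher in E14.5 cells, and those of the glucose transporter Slc2a1, the hexokinase Hk2 and the enolase Eno2 were lower. Of the 37 tested genes, 16 rose, 4 fell and 17 did not pass an adjusted p of 0.05 in limma, a linear model fitted to all probe sets. Of all tested genes 27.8% passed, with 14.3% higher and 13.6% lower. On the log2 scale and as E14.5 minus E11.5, the median over the 37 genes was 0.43, and that over all tested genes was 0.03. Between the arrays of a group these genes differed by a median of 0.20 at E14.5 and 0.21 at E11.5 on the same scale. The largest rises were those of Ppp1r3c, Pcx and Gyg, and the largest falls those of Eno2, Hk2 and Slc2a1. Without overlap between the groups, 21 of the 37 genes were higher and 8 lower, where the shares over all tested genes were 34.6% and 31%. Among the 37, the mean signal of Slc16a3 at E14.5 and of Pygl at E11.5 lay below the filter of 27.3, so these 2 genes were tested because of the other group. The plot of differences by step of the pathway shows that the glycogen genes and Pcx lie to the right of 0, with Gbe1 as the exception among them.

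**Figure D1:**
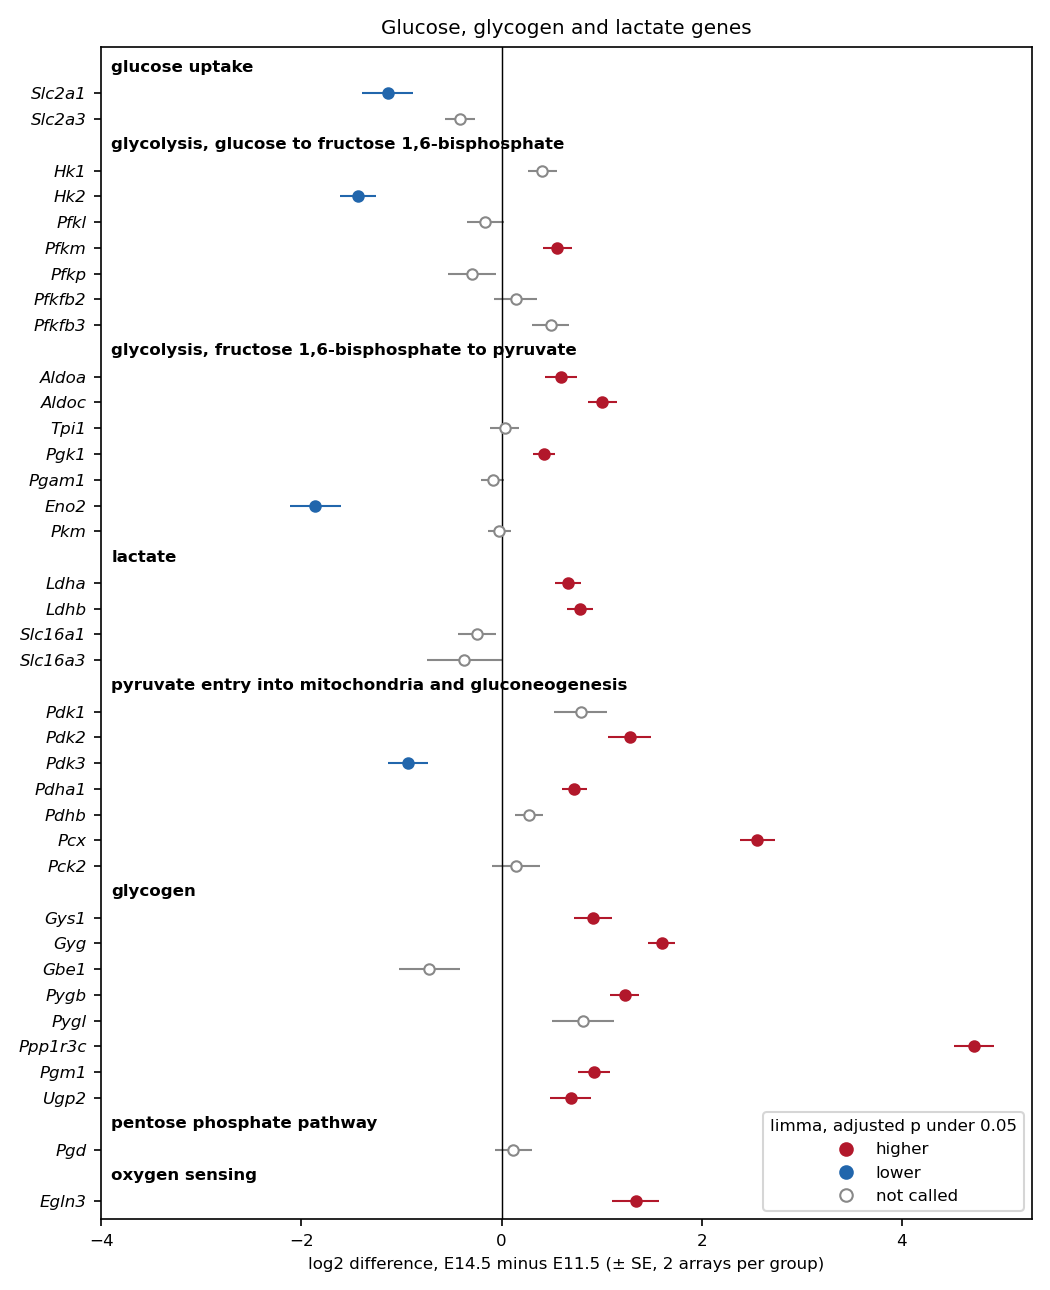
Log2 difference, E14.5 minus E11.5, of the 37 tested genes by step of the pathway (x axis), each from its brightest probe set. Points are estimates from 2 arrays per group, bars are ± SE, and filled points passed an adjusted p of 0.05 in limma (16 higher, 4 lower), with Ppp1r3c farthest to the right at 4.72.

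The sequences upstream of the start site are printed for the 3 genes that rose most and the 3 that fell most. They are the 250 bases before the RefSeq start on build GRCm38.p6, read 5′ to 3′ on the strand of the gene. Capitals mark ACGTG on either strand, 1 form of the core that hypoxia-inducible factors bind. As CACGTG it also forms the E-box bound by Myc and the carbohydrate response factors. Other forms of the core were not marked or counted, so 0 matches does not mean that none is present. In CACGTG the matches on the 2 strands overlap.
Ppp1r3c, chr19:36736605-36736854, minus strand: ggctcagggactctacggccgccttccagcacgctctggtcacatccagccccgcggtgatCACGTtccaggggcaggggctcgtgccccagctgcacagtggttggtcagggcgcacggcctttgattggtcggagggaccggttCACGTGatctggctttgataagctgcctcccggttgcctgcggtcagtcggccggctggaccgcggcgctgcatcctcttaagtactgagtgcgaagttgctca
Pcx, chr19:4510222-4510471, plus strand: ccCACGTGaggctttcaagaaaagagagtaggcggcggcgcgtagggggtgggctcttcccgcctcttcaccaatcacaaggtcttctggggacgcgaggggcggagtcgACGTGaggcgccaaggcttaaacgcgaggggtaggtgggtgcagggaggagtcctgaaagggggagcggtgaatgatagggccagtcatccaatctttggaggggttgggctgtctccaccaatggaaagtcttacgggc
Gyg, chr3:20155117-20155366, minus strand: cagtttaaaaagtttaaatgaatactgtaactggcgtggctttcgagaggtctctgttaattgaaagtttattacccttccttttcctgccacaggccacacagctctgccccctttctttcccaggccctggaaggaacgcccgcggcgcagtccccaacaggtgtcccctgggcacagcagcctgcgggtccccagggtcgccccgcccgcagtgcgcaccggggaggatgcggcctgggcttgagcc
Eno2, chr6:124769674-124769923, minus strand: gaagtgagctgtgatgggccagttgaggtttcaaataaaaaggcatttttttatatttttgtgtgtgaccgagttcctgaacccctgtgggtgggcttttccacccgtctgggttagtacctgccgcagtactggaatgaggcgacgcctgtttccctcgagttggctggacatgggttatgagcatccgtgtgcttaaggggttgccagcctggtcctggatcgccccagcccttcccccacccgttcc
Hk2, chr6:82774455-82774704, minus strand: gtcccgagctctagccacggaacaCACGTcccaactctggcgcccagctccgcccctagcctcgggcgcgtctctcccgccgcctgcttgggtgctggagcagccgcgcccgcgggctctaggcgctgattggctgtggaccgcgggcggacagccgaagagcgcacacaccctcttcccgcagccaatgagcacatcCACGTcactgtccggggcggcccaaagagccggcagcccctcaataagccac
Slc2a1, chr4:119108495-119108744, plus strand: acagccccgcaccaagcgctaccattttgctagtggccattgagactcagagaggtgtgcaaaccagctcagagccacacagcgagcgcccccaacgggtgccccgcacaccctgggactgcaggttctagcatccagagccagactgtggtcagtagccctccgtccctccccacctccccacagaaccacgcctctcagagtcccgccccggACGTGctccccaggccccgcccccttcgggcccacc
Counted on both strands, these letters occurred 3 times each in the Ppp1r3c and Pcx stretches and 2 times in that of Hk2. They occurred 1 time in that of Slc2a1 and 0 times in those of Gyg and Eno2. For Ppp1r3c and Pcx, 2 of the 3 matches are 1 CACGTG read on both strands. The second annotated start of Pcx had 0 matches in its 250 bases. Of 42 listed genes with a promoter in the table, 24 (57.1%) held ACGTG before at least 1 start, as did 24.6% of 10453 tested genes of any function with a promoter there and 18.5% of all 27025 genes in the table. By result, the share was 11 of 16 genes that rose, 3 of 4 that fell and 8 of 16 tested genes that did not pass, so the letters stood before genes of each kind. CACGTG was found for 9 of the 42 genes (21.4%) and for 9.55% of the tested genes. The median GC content of the stretches was 60% for the listed and 59.6% for the tested genes. A match describes the sequence only, and binding was not measured.

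Glycogen genes were higher in E14.5 cells for 6 of 8 tested members, against 14.3% of all tested genes. The limma fit called none of the 8 lower, against 13.6% of all tested genes. At an unadjusted p of 0.05, 7 were higher and 1 lower, where the shares of all tested genes were 20.6% and 19.4%. Ppp1r3c, the regulatory subunit that brings protein phosphatase 1 to glycogen and activates glycogen synthase, had scaled signals of 1756 and 1261 on the E14.5 arrays, against 38.3 and 50.5 on the E11.5 arrays. Every E14.5 value was many times every E11.5 value, and the ratio of means was 34.0. Its log2 difference was 4.72 ± 0.20 (limma adjusted p = 6.66e-07), where ± marks the standard error of a difference between 2 and 2 arrays, here and for every log2 difference that follows. Its other probe set rose by 2.98 ± 0.28. All differences are on the scale of log2 of the scaled signal plus 12.8, which understates the change of dim genes.

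Gyg, glycogenin, the protein primer on which a glycogen particle is built, reached 1117 and 1030 at E14.5, against 358 and 333 at E11.5. Both of its probe sets rose, by 1.60 ± 0.14 and 1.73 ± 0.16. Gys1, the glycogen synthase of tissues other than liver, had 245 and 240 at E14.5, against 134 and 112 at E11.5 (0.91 ± 0.19, adjusted p = 0.00549 in limma). Its second, dimmer probe set differed by 0.23 and did not pass, and the average of both was 0.57. Pgm1, phosphoglucomutase, which interconverts the glucose phosphates of glycogen and glycolysis, stood at 447 and 386 at E14.5 and at 214 and 211 at E11.5 (0.92 ± 0.16). Its second probe set, with mean signals of 30.5 and 45.1, went the other way without passing (-0.36), and the averaged value of 0.28 did not pass either. Ugp2, which makes the UDP-glucose that glycogen synthase uses, had 1167 and 940 at E14.5, against 516 and 805 at E11.5. The 2 E11.5 arrays were thus well apart for Ugp2, without reaching the E14.5 values. Its difference was 0.69 ± 0.20, and 4 of its 5 probe sets rose. The call of its brightest probe set was lost without E14.5 replicate 1 (0.54), without E11.5 replicate 1 (0.38), with no filter and with no variance trend.

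The enzymes that release glucose units from glycogen were measured too. Pygb, the brain form of glycogen phosphorylase, had 1364 and 1185 at E14.5, against 575 and 496 at E11.5, a rise of 1.23 ± 0.14 (limma adjusted p = 0.000215). Pygl, the liver form, was dim at 55.0 and 56.7 at E14.5, against 29.2 and 23.5 at E11.5. The groups of Pygl did not overlap, and its difference of 0.81 ± 0.31 did not pass (adjusted p = 0.0858 in limma). Pygm, the muscle form, lay below the filter on all 4 arrays, at 12.4 or less. Gbe1, the branching enzyme, had 37.4 and 27.5 at E14.5, against 52.7 and 71.3 at E11.5, and did not pass (-0.72 ± 0.31). It was the only tested glycogen gene with a negative difference at its brightest probe set.

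Pyruvate carboxylase showed the second largest rise. Pcx, which turns pyruvate into oxaloacetate and so refills the citric acid cycle, had signals of 1222 and 881 at E14.5, against 160 and 172 at E11.5. The groups were far apart, with a ratio of means of 6.34 and a log2 difference of 2.56 ± 0.18 (limma adjusted p = 8.88e-06). The array carries 4 further probe sets for Pcx among its controls, and all 4 rose when control probe sets were kept in the fit. The one at the 3′ end had 658 and 588 at E14.5, against 125 and 125 at E11.5 (2.21 ± 0.16). The 2 in the middle of the transcript rose by 1.61 ± 0.22 and 2.19 ± 0.23, and the one at the 5′ end by 1.35 ± 0.24. The 3′ to 5′ ratio of Pcx was 2.75 and 3.28 on the E14.5 arrays and 2.02 and 1.44 on the E11.5 arrays. The same ratio for Gapdh was 0.825 and 0.879 at E14.5 and 0.806 and 0.808 at E11.5; the part of RNA length in the size of the Pcx rise was not tested.

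Of the other genes that decide the fate of pyruvate, the kinases of pyruvate dehydrogenase moved apart. Pdk2, a kinase that phosphorylates and inhibits the complex, had 159 and 147 at E14.5, against 56.7 and 54.5 at E11.5, and rose by 1.28 ± 0.22. Pdk3, an isoform of the same kinase, had 153 and 112 at E14.5, against 270 and 252 at E11.5, and fell by 0.93 on the log2 scale (SE 0.20, limma adjusted p = 0.00699). Pdk1, an isoform induced in hypoxia, had 78.0 and 80.9 at E14.5 and 40.2 and 41.0 at E11.5. Its groups did not overlap, and its difference of 0.79 ± 0.26 missed the threshold (adjusted p = 0.0535 in limma); it passed with quantile normalization, with scaling to the 75th percentile and without the variance trend. Pdha1, the catalytic subunit that these kinases act on, had 2650 and 3080 at E14.5, against 1735 and 1708 at E11.5 (0.73 ± 0.13), and its second probe set rose by 0.55 ± 0.14. Pdhb, the partner subunit, did not pass (0.27 ± 0.14), and its second, dim probe set was at -0.82. Pck2, the mitochondrial enzyme that makes phosphoenolpyruvate from oxaloacetate, did not pass (0.15 ± 0.24). Fbp2, the muscle form of fructose bisphosphatase, stayed below the filter, at 13.8 and 11.9 at E14.5 and 9.40 and 4.03 at E11.5.

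Both lactate dehydrogenase subunits rose. Ldha, the subunit that favours making lactate, had 2589 and 2460 at E14.5, against 1727 and 1453 at E11.5 (0.67 ± 0.13, limma adjusted p = 0.00444), a call that was lost without the variance trend. Ldhb, the subunit that favours using lactate, had 2722 and 3078 at E14.5, against 1765 and 1585 at E11.5 (0.79 ± 0.13). All 4 probe sets of Ldhb rose, by 0.66 to 0.83. The lactate carriers did not pass. Slc16a1, a carrier of lactate and pyruvate, had 472 and 332 at E14.5, against 437 and 509 at E11.5 (-0.24 ± 0.19), and its groups overlapped. Slc16a3, a carrier known for lactate export from glycolytic cells, was dim, at 21.0 and 30.03 at E14.5 and 49.6 and 26.1 at E11.5 (-0.37 ± 0.38).

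Of the glucose transporters Slc2a1 fell and Slc2a3 did not pass, and of the hexokinases Hk2 fell and Hk1 did not pass. Slc2a1, the glucose transporter GLUT1, had 384 and 220 at E14.5, against 804 and 536 at E11.5. Within each group replicate 1 was the higher array, and the groups did not overlap. All 3 probe sets of Slc2a1 fell, the brightest by 1.14 on the log2 scale (SE 0.26, limma adjusted p = 0.00973) and the others by 1.21 and 1.04. Its value was -0.75 without E14.5 replicate 2, still past the threshold, and the call of the brightest probe set was lost without the variance trend. Slc2a3, GLUT3, the main transporter of neurons, had 305 and 324 at E14.5, against 423 and 426 at E11.5 (-0.42 ± 0.15), and missed the threshold (adjusted p = 0.0697 in limma). Hk2, the inducible hexokinase of growing and of muscle cells, had 170 and 134 at E14.5, against 467 and 397 at E11.5, and fell by 1.44 on the log2 scale (SE 0.18, adjusted p = 0.000365). Hk1, the hexokinase that prevails in brain, had 765 and 673 at E14.5, against 536 and 538 at E11.5. The groups of Hk1 did not overlap, but its difference of 0.41 ± 0.14 did not pass (limma adjusted p = 0.0601). Hk1 passed with scaling to the 75th percentile (0.47), with the stricter filter and with its probe sets averaged (0.43).

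Phosphofructokinase, the committed step of glycolysis, has 3 subunit genes. Pfkm, the muscle form, had 794 and 872 at E14.5, against 600 and 525 at E11.5, and rose by 0.56 ± 0.14 (limma adjusted p = 0.0171). That call was lost without E14.5 replicate 2 (0.49), without E11.5 replicate 2 (0.46) and when limma was run with no variance trend. Pfkl, the liver form (-0.16 ± 0.18), and Pfkp, the platelet form (-0.30 ± 0.24), did not pass. The 3 probe sets of Pfkp ran from -1.27 to 0.70, none of them past the threshold. Pfkfb2 (0.14 ± 0.21) and Pfkfb3 (0.49 ± 0.19), which make the sugar bisphosphate that activates phosphofructokinase, did not pass either. For Pfkfb3 the second, dimmer probe set had the opposite sign (-0.46).

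In the lower part of glycolysis the aldolases and phosphoglycerate kinase rose and the neuronal enolase fell. Aldoc, the aldolase of brain, strong in astrocytes, had 5313 and 4635 at E14.5, against 2172 and 2798 at E11.5. This was a ratio of means of 2.00 (1.01 ± 0.15, limma adjusted p = 0.000819), and its second probe set had a difference of 1.38. That second probe set had 74.3 and 65.8 at E14.5, against 9.07 and 33.1 at E11.5, and was tested only because of its E14.5 mean, since its E11.5 mean of 21.1 lay below the filter. Aldoa, the widespread aldolase, had 4147 and 4188 at E14.5, against 3287 and 2317 at E11.5 (0.59 ± 0.16, adjusted p = 0.0225). Of its 5 probe sets 2 rose and 3 did not pass, with values from -0.15 to 0.59. The call of Aldoa was lost with its probe sets averaged (0.33), with no filter, with no variance trend, and on leaving out E14.5 replicate 1 (0.60), E14.5 replicate 2 (0.585) or E11.5 replicate 2 (0.34). Pgk1, phosphoglycerate kinase, had 7770 and 7775 at E14.5, against 6009 and 5567 at E11.5 (0.43 ± 0.11, adjusted p = 0.0211 in limma). The call of its brightest probe set was lost on leaving out E14.5 replicate 1 (0.43), E14.5 replicate 2 (0.43) or E11.5 replicate 2 (0.37), with no filter and with no variance trend. With quantile normalization that value was 0.01. A second Pgk1 probe set, whose name carries no mark of possible cross-hybridisation, had 5048 and 4795 at E14.5, against 3357 and 3389 at E11.5 (0.54 ± 0.11).

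Eno2, the enolase of neurons, had 31.9 and 45.5 at E14.5, against 194 and 153 at E11.5. It fell by 1.86 on the log2 scale (SE 0.25, limma adjusted p = 0.000527), more than any other gene of the set. Its only tested probe set gave that value. The remaining enzymes of this stretch did not pass. Tpi1, triosephosphate isomerase (0.03 ± 0.15), Pgam1, phosphoglycerate mutase (-0.09 ± 0.12), and Pkm, pyruvate kinase (-0.02 ± 0.12), each lay within 0.1 of no difference. Gapdh was measured by control probe sets alone, 3 along its transcript, and these differed by 0.02 to 0.09 without passing in the fit that kept controls. Its 3′ probe set had 5948 and 6536 at E14.5, against 6102 and 5591 at E11.5. Gpi1, Eno1 and G6pdx were not analysed here, since no probe set named only that gene.

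**Figure D2:**
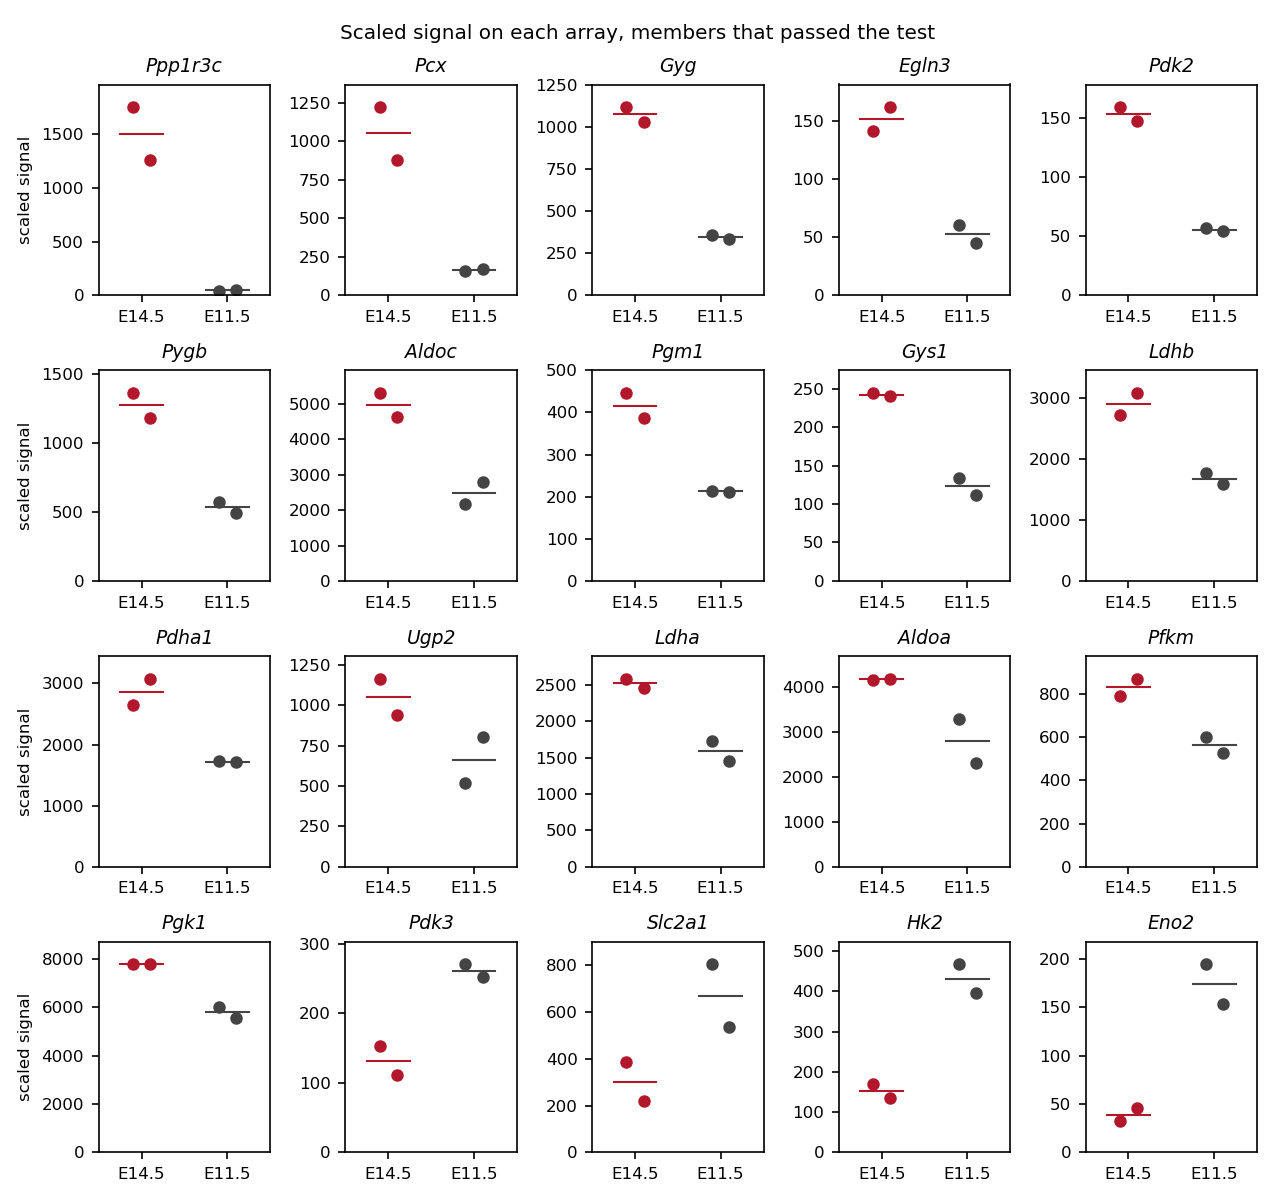
Scaled signal (linear y axis from 0, own range per gene) of the 20 genes that passed the test, on each of the 2 E14.5 arrays (left, red) and 2 E11.5 arrays (right, grey). Points are arrays and lines are group means. The groups overlap for none of the 20 genes, which were picked by a test on these same arrays. Of all tested genes 34.6% were higher and 31% lower without overlap. Ppp1r3c has the largest ratio of means, with 1756 and 1261 against 38.3 and 50.5.

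Of the pentose phosphate pathway, the branch that makes ribose and NADPH, only Pgd could be tested. This dehydrogenase had 1020 and 1171 at E14.5, against 1240 and 817 at E11.5, and did not pass (0.12 ± 0.19). Egln3, an oxygen-dependent prolyl hydroxylase that marks hypoxia-inducible factors for degradation and is itself one of their targets, rose. It had 142 and 162 at E14.5, against 60.3 and 44.9 at E11.5 (1.34 ± 0.24, limma adjusted p = 0.00248). Its second probe set had 172 and 141 at E14.5, against 38.7 and 37.7 at E11.5, and rose by 1.72 ± 0.24.

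Many of these genes have several probe sets, and their values show how far a result depends on the probes. All tested probe sets passed in the same direction for Slc2a1 (3), Ldhb (4), Pdha1, Gyg, Ppp1r3c and Egln3, and for Aldoc with the dim second probe set described above. For Aldoa, Pgk1, Ugp2, Gys1 and Pgm1 at least 1 probe set did not pass. No gene of the set had probe sets called in opposite directions. The brightest probe sets of Slc2a3, Aldoa, Tpi1, Pgk1, Gyg and Pgd carry an s or x in their names, the manufacturer's marks for probes that match several transcripts. With such probe sets left out, 15 genes of the set rose and 4 fell, and Aldoa had no probe set. Of all 12608 genes that still had one, 1748 rose and 1741 fell. This setting was chosen after the data were seen.

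**Figure D3:**
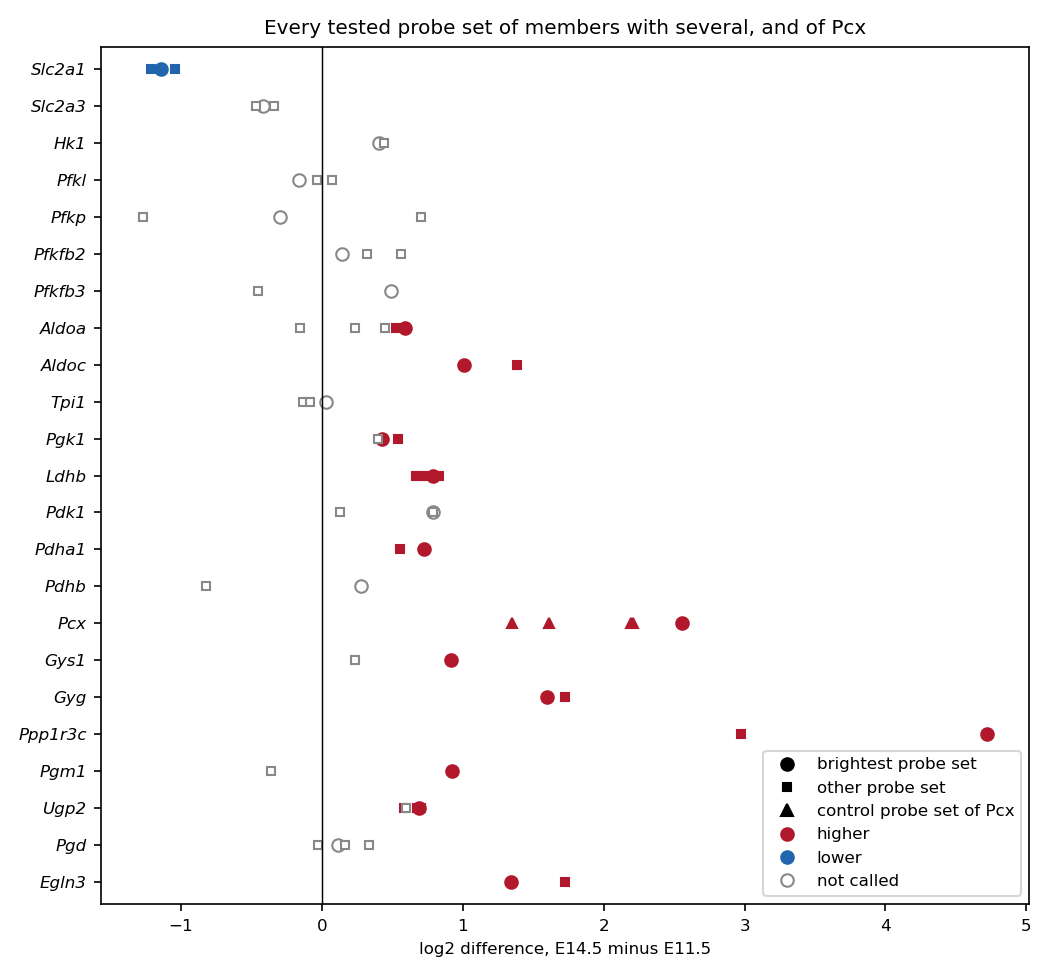
Log2 difference, E14.5 minus E11.5 (x axis), of every tested probe set of the genes with more than 1, and of Pcx with its 4 control probe sets. Circles are the brightest probe set of a gene, squares its others and triangles the Pcx controls; filled symbols passed an adjusted p of 0.05, and the 5 values of Pcx run from 1.35 to 2.56.

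Other genes of the same pathways were listed by name, with earlier results of these data known. Of 57 tested, 12 rose (21.1%) and 6 fell (10.5%), with a median of 0.04. Over all tested genes 14.3% rose and 13.6% fell, with a median of 0.03. Pdk4, a further pyruvate dehydrogenase kinase, had 61.3 and 40.1 at E14.5, against 16.5 and 10.1 at E11.5 (1.27 ± 0.37). It was tested only because of its E14.5 mean, as its E11.5 mean of 13.3 lay below the filter. Ppp1r3d, a relative of Ppp1r3c that also targets the phosphatase to glycogen, rose by 1.25 ± 0.27 and had 91.2 and 108 at E14.5, against 29.8 and 39.4 at E11.5. Hk3, a hexokinase of blood cells (1.15 ± 0.35), Gaa, the lysosomal enzyme that digests glycogen (1.08 ± 0.17), and Gpd1, a glycerol phosphate dehydrogenase (1.07 ± 0.26), followed. The largest fall was that of Emb, embigin, a membrane partner of lactate carriers, which had 60.5 and 34.9 at E14.5, against 388 and 375 at E11.5 (-2.74 ± 0.24, limma adjusted p = 3.16e-05). Pdp1, the phosphatase that reactivates pyruvate dehydrogenase (-1.31 ± 0.23), Pgm2l1, a relative of Pgm1 (-1.31 ± 0.19), Ppp1r3f (-1.11 ± 0.32), and Pfkfb4, a further maker of the activator of phosphofructokinase (-1.01 ± 0.21), also fell. Whether this list and the 37 genes differ was not tested.

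The oxygen-sensing pathway was set beside Egln3 and Pdk1. Of 29 tested genes of hypoxia-inducible factors, their targets outside the set and other regulators of sugar metabolism, 3 rose (10.3%), against 14.3% of all tested genes. The limma fit called 0 of them lower, against 13.6% of all tested genes. At an unadjusted p of 0.05, 7 of the 29 were higher and 3 lower, where the shares of all tested genes were 20.6% and 19.4%. Those that rose were Myc (1.33 ± 0.17), Txnip, an inhibitor of glucose uptake (0.65 ± 0.17), and Ddit4, a stress-induced inhibitor of mTOR signalling (0.61 ± 0.13). Hif1a (-0.13 ± 0.12), Vegfa (-0.03 ± 0.25) and Bnip3 (0.31 ± 0.15) did not pass. These 3 were named after their values were seen, as a factor and its well-known targets, and do not stand for the list. Without overlap between the groups, 13 of the 29 were higher and 6 lower. The shares over all tested genes were 34.6% and 31%.

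**Figure D4:**
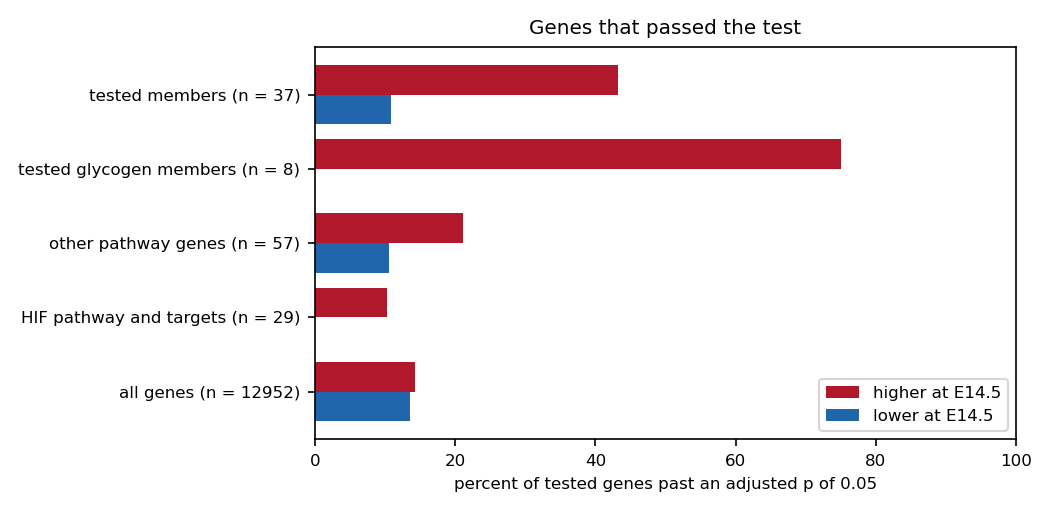
Percent of tested genes (x axis, from 0) that were higher (red) or lower (blue) at E14.5 at an adjusted p of 0.05 in limma, for the tested genes of the set, its glycogen genes, the other pathway genes, the hypoxia-inducible factor (HIF) list and all tested genes. The set reached 43.2% higher and 10.8% lower, and all genes 14.3% and 13.6%.

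Markers of several cell types also differed between the groups, some higher and some lower at E14.5. Of all tested genes 14.3% were higher and 13.6% lower. In bulk RNA, fewer cells of a type and less RNA per cell cannot be told apart. Markers of neural precursors were present in both groups: 13 of 14 were tested, 5 rose and 3 (Pax6, Sox1 and Cdh2) fell. Their summed signal was 36498 and 37555 at E14.5, against 26455 and 24468 at E11.5. Fabp7 made up 10387 and 11976 of the E14.5 sums and 7661 and 7196 at E11.5. Slc1a3 made up 4064 and 4114 at E14.5 and 530 and 644 at E11.5. Of 15 neuron markers 14 fell, with sums of 5734 and 5452 at E14.5 and 17750 and 18785 at E11.5. Bright genes weigh most in such sums. Map2, the neuron marker that did not pass, made up 2825 and 2924 of the E14.5 sums and 2352 and 2581 at E11.5. Of 14 tested astrocyte markers 10 rose, with sums of 16782 and 12356 at E14.5 and 4832 and 4417 at E11.5. Apoe alone made up 6154 and 3619 of the E14.5 sums and 185 and 251 at E11.5. Of 11 tested oligodendrocyte lineage markers 9 rose, with sums of 22423 and 24900 at E14.5 and 1602 and 1251 at E11.5. Olig1 made up 7463 and 9017 of the E14.5 sums and 445 and 356 at E11.5. Of 11 tested microglia markers 9 rose, with sums of 2290 and 2151 at E14.5 and 324 and 472 at E11.5. The sums of endothelial markers (5 tested, 2 higher, 1 lower) were 344 and 392 at E14.5 and 333 and 254 at E11.5. Those of meningeal markers (8 tested, 4 lower) were 1049 and 765 at E14.5 and 1970 and 2153 at E11.5. Those of erythroid markers (4 tested, 2 lower) were 136 and 166 at E14.5 and 887 and 413 at E11.5. These counts include 13 markers with 1 group mean below the filter, which were tested only because of the other group. All 13 are among the markers counted as higher or lower. They are 4 microglia, 3 astrocyte, 2 oligodendrocyte lineage, 2 erythroid, 1 endothelial and 1 neuron marker. No tested marker was at 0 on any array. Below the pseudocount of 12.8 on average lay Cspg4, Gpr17, C1qa, C1qc, S100b and Plvap at E11.5, and Hbb-y and Hba-x at E14.5. Their part in the rises of Ppp1r3c, Pcx and Aldoc or in the fall of Eno2 was not tested.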

How the data were processed

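Total RNA was labelled with biotin and hybridised to 1 Affymetrix array per sample. The authors deposited 1 linear intensity per probe set, which GCOS made per the submitters' processing notes. Its settings were not given in the sources used here. Groups and replicate numbers came from the sample titles. Genes were named by the platform annotation where it gave 1 symbol (34945 probe sets without the 64 controls).

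The 2% trimmed means were 154 and 103 on the E14.5 arrays and 187 and 252 on the E11.5 arrays, and each array was multiplied to a common 174. Probe sets at or above the 40th percentile of mean scaled signal (27.3) were kept, 27022 in all. Log2 of signal plus 12.8 (the 25th percentile) was fitted with limma 3.58.1 in R 4.3.3 (lmFit, eBayes with a variance trend), with Benjamini-Hochberg adjustment over all probe sets and a threshold of 0.05. A gene was represented by its brightest tested probe set. Precision is limited by having only 2 arrays in each group. Each variance rested on 2 residual degrees of freedom and on 7.989 prior ones, drawn from all tested probe sets. The labels do not say whether equal replicate numbers mark a shared batch or day. The replicate deviations of the 2 groups had a correlation of 0.0041. That value covers all tested probe sets and can miss a batch effect on few of them, so pairing was not settled.

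The 43 genes and the lists were chosen with earlier results of these data known. Every tested gene of the set is named, those that passed with each array's value, and of each of the 2 lists of other pathway genes the 5 largest rises and 5 largest falls among those that passed. Hif1a, Vegfa and Bnip3 were named outside this rule. Alternatives were other scalings, pseudocounts, filters and probe set rules, no variance trend, a replicate block, and each array left out in turn.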

Additional observations from a re-analysis of the deposited data

How the results depend on the processing

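Of the 20 genes that passed, 13 kept direction and call under all 15 alternatives; the exceptions were Slc2a1, Pfkm, Aldoa, Pgk1, Ldha, Pgm1 and Ugp2, with values in the text above. The number that rose was 13 to 18 and the number that fell 3 or 4. Over all genes, the number that rose was 1150 to 2122 and the number that fell 1101 to 1933 in the same alternatives. Adding a replicate block, a pairing that the labels do not state, left 16 genes of the set higher and 4 lower. The median of the 37 genes was 0.33 with probe sets averaged. With an array left out, 1 group rests on a single array assumed to vary like the other group. The left-out range was 0.46 to 0.65 for Pfkm, 0.34 to 0.84 for Aldoa, 0.37 to 0.48 for Pgk1 and 0.38 to 1.00 for Ugp2. Signs turned only for genes that had not passed: over arrays left out, Pfkl ran from -0.37 to 0.041 (0.0044 without E11.5 replicate 1), Pfkfb2 from -0.062 to 0.34, Tpi1 from -0.15 to 0.21 (-0.03 without E14.5 replicate 1), Pkm from -0.091 to 0.048, Slc16a1 from -0.49 to 0.0025, Pck2 from -0.12 to 0.41 (-0.11 without E11.5 replicate 2) and Pgd from -0.18 to 0.41. Tpi1 was -0.022 under quantile normalization, -0.062 with probe sets averaged and -0.13 without s or x probe sets; Pgd was -0.026 without those, Pkm 0.042 with scaling to the 75th percentile and Pdhb -0.27 with probe sets averaged. The cause was not tested.

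Among the other pathway genes, the number that rose was 6 without a filter and 6 without the variance trend, against 12. Their median was 0.11 with scaling to the 75th percentile, 0.11 with the filter at the 60th percentile, and 0.071 to 0.10 with an array left out. In the hypoxia list, 1 gene rose without the variance trend, and 6 rose and 1 fell with the replicate block. There 1 fell without a filter, and 0 or 1 with an array left out (1 without E14.5 replicate 1). Its median was 0.065 with probe sets averaged and 0.022 to 0.22 with an array left out. Scaling to the 75th percentile moved the median of all genes to 0.088. Over all 12952 genes, 1150 rose and 1101 fell without the variance trend, against 1850 and 1756. With the replicate block 2016 of them rose and 1933 fell. Without a filter 1403 rose and 1360 fell, of 18193 genes. Dim genes such as Slc16a3, Pygl and Gbe1 are measured close to the filter, which limits what can be seen for them.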
